A study of Mus musculus with 10 samples.

Results

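Immunoglobulin and plasma cell genes were followed through the cerebellum and cortex of Snx14 mutant mice. The 9 genes were the heavy chain constant regions Ighm, Ighg1, Ighg2b, Ighg2c and Igha, the light chain constant regions Igkc and Iglc2, and the plasma cell genes Jchain and Mzb1, out of 55536 mouse genes counted. They were selected on the CPM levels of Ighg1 and Igkc, which were high in few libraries, so the levels and fold changes of those 2 genes are given as a description with no test, and the high level of the other members in the same libraries is not independent of that choice. Gene expression was measured by strand-specific mRNA sequencing in 10 libraries from 5 mice of 1 year of age, with 1 cerebellum and 1 cortex library from each mouse. Controls 1 and 2 were heterozygous for Snx14 (Het) and control 3 was wild type (WT), so the control group mixed 2 genotypes. KO 1 and KO 2 carried a frameshift deletion in both copies of Snx14 in every cell of the body. All mice had the C57BL/6J background. Each library is 1 mouse, and the labels mention no pooling.

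Antibodies are built from 2 heavy and 2 light chains, and each chain joins a variable (V) segment, a joining (J) segment and a constant region. The heavy chain constant region sets the class: Ighm encodes IgM, Ighg1, Ighg2b and Ighg2c encode IgG subclasses, and Igha encodes IgA. A B cell starts with IgM and can switch to another class, and a plasma cell is the terminal stage that secretes antibody. Jchain encodes the joining chain that links IgM or IgA units into polymers, and Mzb1 encodes a co-chaperone of the endoplasmic reticulum that aids antibody assembly. In healthy brain, B cells and plasma cells are sparse and lie mostly in the meninges and around the choroid plexus.

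The IgG subclasses found in these libraries differ most visibly in the hinge, a short exon between the antigen-binding arms and the tail of the heavy chain, which is shown here because Ighg1 was the leading class. The exons are given 5′ to 3′ from the GENCODE M21 transcripts (GRCm38), with the in-frame cysteine codons in capitals. They lie at chr12:113329844-113329882 for Ighg1, chr12:113307261-113307326 for Ighg2b and chr12:113288263-113288325 for Ighg2c, all on the minus strand.
Ighg1 hinge: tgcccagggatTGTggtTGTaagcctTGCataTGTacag
Ighg2b hinge: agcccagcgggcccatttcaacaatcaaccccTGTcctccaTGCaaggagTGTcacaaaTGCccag
Ighg2c hinge: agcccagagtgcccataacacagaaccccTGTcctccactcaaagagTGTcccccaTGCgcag
The Ighg1 and Ighg2b hinges each held 4 such codons and the Ighg2c hinge held 3. Over the aligned coding sequence, Ighg1 was 76.3% identical to Ighg2b and 77.5% identical to Ighg2c, and Ighg2b was 85.9% identical to Ighg2c. The lambda constant regions are closer to each other. Iglc2 and Iglc3 were 96.5% identical over 314 aligned coding bases, whereas Iglc2 and Iglc1 were 73.2% identical. A stretch of 90 bases shows the difference, with bases unlike Iglc2 in capitals, at chr16:19198749-19198838 for Iglc2, chr16:19065578-19065667 for Iglc3 and chr16:19061968-19062057 for Iglc1, all on the minus strand.
Iglc2: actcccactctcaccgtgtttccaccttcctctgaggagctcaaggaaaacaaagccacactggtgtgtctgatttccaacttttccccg
Iglc3: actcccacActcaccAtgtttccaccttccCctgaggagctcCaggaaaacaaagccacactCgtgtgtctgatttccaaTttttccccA
Iglc1: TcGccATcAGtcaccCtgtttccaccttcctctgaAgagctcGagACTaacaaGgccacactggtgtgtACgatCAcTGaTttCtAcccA
Iglc3 differed from Iglc2 at 7 of the 90 bases and Iglc1 at 23. Reads that fit several genes equally well were not counted, so the Iglc2 and Iglc3 counts are uncertain.

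The libraries held 16088310 to 22975355 counts in mouse genes, and a gene with no count could hide up to 3 counts. Levels are counts per 1000000 (CPM), scaled over all 10 libraries. Snx14 lay at 43.1, 40.2 and 73.2 CPM in control cerebella 1, 2 and 3 and at 15.5 and 17.4 CPM in KO cerebella 1 and 2. In cortex it lay at 34.3, 34.9 and 50.3 CPM in the controls and at 14.8 and 15.9 CPM in the KO libraries. Every KO library was below every control in its tissue, as the labels give. The tissue labels also held: 8 cerebellar granule cell genes summed to 3953 to 4733 CPM in cerebellum and 97.4 to 123 CPM in cortex, and 8 cortical excitatory neuron genes summed to 434 to 501 CPM in cerebellum and 1355 to 1848 CPM in cortex. The 2 KO 1 libraries and the cortex of control 2 stood apart from the others of their tissue in ways that touch the genes below, and where leaving 1 of them out moved a called value or turned a direction, the value without it is given.

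Ighg1 encodes the constant region of IgG1 (ENSMUSG00000076614.7, chr12:113325240-113330523, minus strand). In cerebellum it lay at 0.894, 0 and 0.0508 CPM in controls 1, 2 and 3, at 241 CPM in KO 1 and at 0.0413 CPM in KO 2. The cortex levels were 1.68, 0.203 and 0.243 CPM in the controls, 118 CPM in KO 1 and 0.0636 CPM in KO 2. KO 1 was thus 270 times the next highest cerebellum and 70.5 times the next highest cortex, while KO 2 fell within the range of the controls in cerebellum and below it in cortex. In counts, KO 1 had 4370 and 2138 for this gene and the 8 other libraries had 0 to 28.

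Igkc encodes the kappa light chain constant region (ENSMUSG00000076609.2, chr6:70726435-70726966, plus strand). In cerebellum it lay at 1.46, 0.513 and 0.203 CPM in the controls, 135 CPM in KO 1 and 1.53 CPM in KO 2. In cortex it lay at 1.44, 0.0506 and 0.789 CPM in the controls, 71.6 CPM in KO 1 and 0.509 CPM in KO 2. The same mouse was again the high one in both tissues, by 88.3 and 49.9 times over the next highest library. The plot of the 9 genes by mouse shows that this held for all members in cerebellum and for all but Ighm in cortex.

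**Figure D1:**
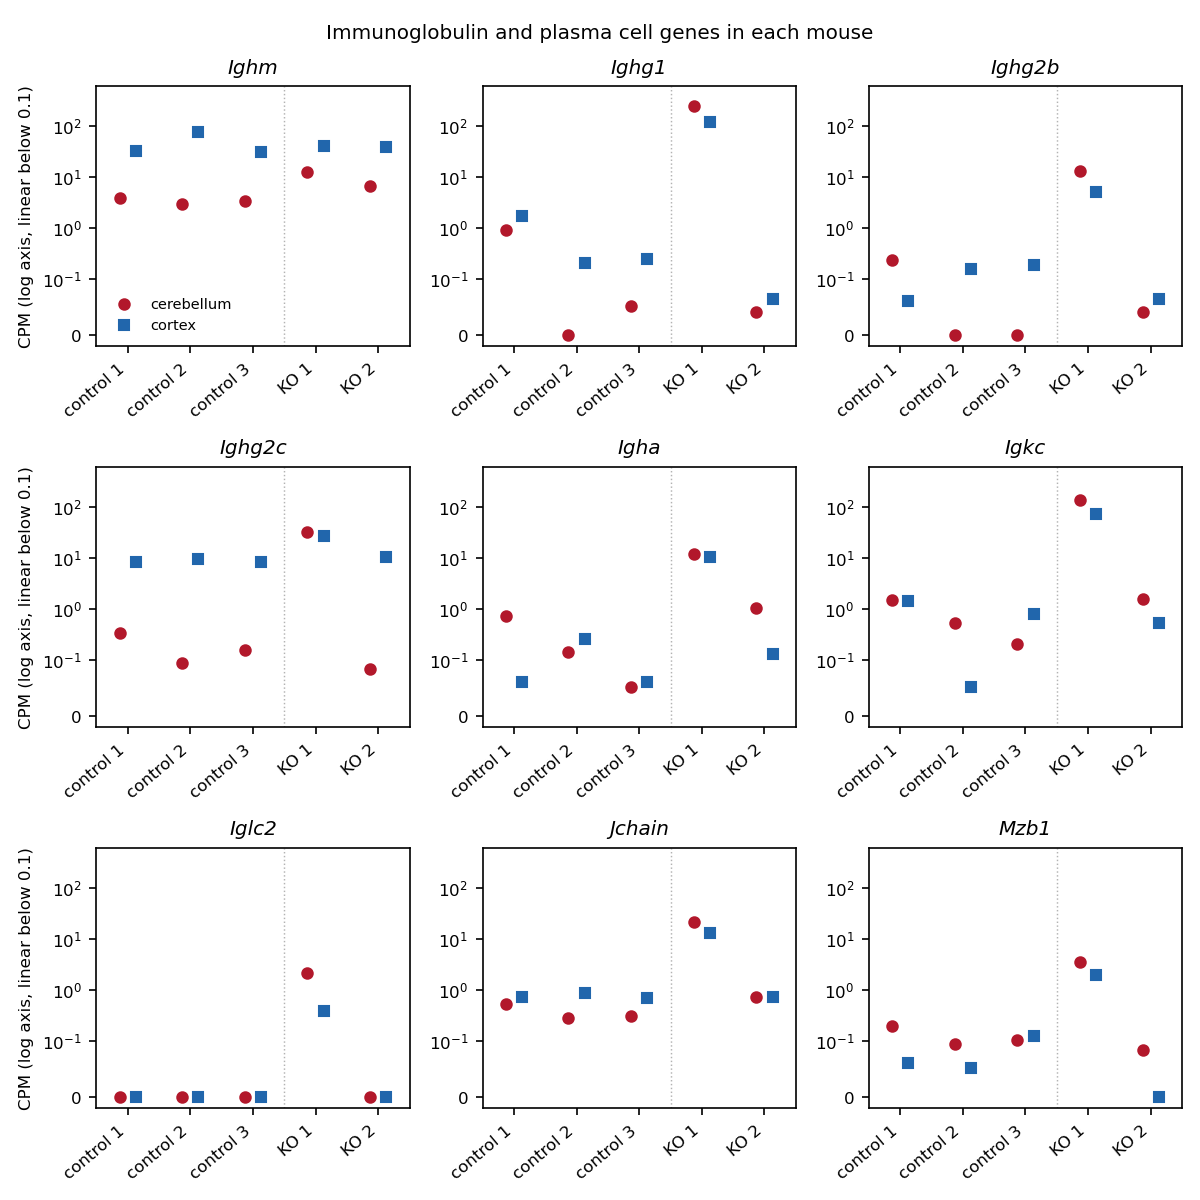
Level of each of the 9 genes in each mouse, in CPM on a log axis that is linear below 0.1, with circles for cerebellum and squares for cortex. KO 1 is the highest cerebellum for all 9 genes and the highest cortex for 8, and the cortex levels of Ighm and Ighg2c lie above 8 CPM in every mouse.

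KO 1 was the highest of the 5 cerebella for 9 of 9 members, where 16.9% of all genes tested had KO 1 highest. It was the highest of the 5 cortices for 8 of 9, where the share of all genes was 18.6%. The rule chose such genes, so nothing is read from these counts. In cerebellum both KO libraries were above all 3 controls for 4 members (Ighm, Igha, Igkc and Jchain), with 13.8% of all genes doing so, and in cortex for Ighg2c alone, with 11.9% of all genes doing so. For these members KO 2 was 1.05 (Igkc), 1.36 (Jchain), 1.46 (Igha) and 1.74 times (Ighm) the highest control in cerebellum and 1.10 times in cortex (Ighg2c). The KO 1 part of this condition was not independent of the choice of members. The shares over all genes carry no such choice, so nothing is read from the counts of members with both KO libraries above the controls either.

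Among the remaining IgG genes, Ighg2b (ENSMUSG00000076613.4) lay at 0.235, 0 and 0 CPM in control cerebella, 12.6 CPM in KO 1 and 0.0413 CPM in KO 2. The cortex levels were 0.0599, 0.152 and 0.182 CPM in the controls, 4.92 CPM in KO 1 and 0.0636 CPM in KO 2. Only KO 1 stood above 5 counts for this gene, with 229 counts in cerebellum and 89 in cortex.

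Ighg2c (ENSMUSG00000076612.8), the IgG2 subclass gene that C57BL/6 mice carry in place of Ighg2a, had another pattern. In cerebellum it lay at 0.330, 0.0932 and 0.152 CPM in the controls, 32.4 CPM in KO 1 and 0.0826 CPM in KO 2. In cortex it was present in every mouse, at 8.08, 9.52 and 8.38 CPM in the controls, 26.3 CPM in KO 1 and 10.5 CPM in KO 2.

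Igha (ENSMUSG00000095079.6), the constant region of IgA, lay at 0.706, 0.140 and 0.0508 CPM in control cerebella, 11.7 CPM in KO 1 and 1.03 CPM in KO 2. In cortex it lay at 0.0599, 0.253 and 0.0607 CPM in the controls, 10.5 CPM in KO 1 and 0.127 CPM in KO 2. It was the member with the smallest difference between the tissues of KO 1, with a cortex to cerebellum ratio of 0.890 (95% exact interval 0.728 to 1.09).

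Ighm (ENSMUSG00000076617.9, chr12:113418558-113422730, minus strand), the constant region of IgM, was the one member with more than 50 counts in every library. In cerebellum it lay at 3.72, 2.94 and 3.35 CPM in the controls, 12.2 CPM in KO 1 and 6.48 CPM in KO 2. The cortex levels were 31.8, 75.3 and 30.7 CPM in the controls, 39.6 CPM in KO 1 and 37.4 CPM in KO 2. The KO cerebella did not overlap the control cerebella, and in cortex the highest library was control 2.

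The lambda constant region Iglc2 (ENSMUSG00000076937.3) had 38 counts in KO 1 cerebellum, 7 in KO 1 cortex and 0 in each of the other 8 libraries. Set against the limit of 3 counts that a 0 allows in any 1 library, the CPM level in KO 1 was at least 13.8-fold higher in cerebellum and at least 2.03-fold higher in cortex. Iglc1, the lambda gene with the most counts, had 84 and 57 counts in KO 1 and 0 to 2 elsewhere. Ighe, the constant region of IgE, had 23 and 17 counts in KO 1 and 0 in the others, and so was detectable in that mouse alone.

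Jchain (ENSMUSG00000067149.6, chr5:88519809-88527891, minus strand) lay at 0.518, 0.280 and 0.305 CPM in control cerebella, 20.9 CPM in KO 1 and 0.702 CPM in KO 2. In cortex it lay at 0.718, 0.861 and 0.668 CPM in the controls, 12.8 CPM in KO 1 and 0.700 CPM in KO 2. The level in KO 1 was 29.8 times that of the next cerebellum and 14.8 times that of the next cortex. Mzb1 (ENSMUSG00000024353.5) had 63 counts in KO 1 cerebellum and 2 to 4 in the other cerebella, and 35 counts in KO 1 cortex and 0 to 2 in the other cortices. Of the exonic bases of Mzb1, 57.2% also lie in an overlapping gene, SPATA24, and the counting did not use strand, so reads of these genes cannot be told apart.

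KO libraries were next compared with controls by edgeR's quasi-likelihood test over all genes, and a gene was called where the Benjamini-Hochberg adjusted p was below 0.05 and the log2 fold change exceeded 0.5 in either direction. The test asks whether the 2 KO mice differed from the 3 controls beyond the spread within groups, and a gene high in 1 KO mouse has a wide spread by construction. In cerebellum, 5 of the 9 members passed the filter on low counts, and 3 of those were tested, leaving out Ighg1 and Igkc. The others stayed below the filter because 1 library alone held nearly all of their counts.

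Ighm was called, with a mean of 9.33 ± 4.03 CPM (SD, n = 2) in KO and 3.33 ± 0.391 CPM (SD, n = 3) in control cerebella, a log2 fold change of 1.47 (SE 0.262) and an adjusted p of 0.0275 by edgeR. This was 1 call in 3 tests, where 0.514% of all 19447 genes were called higher and 1.55% were called in either direction. Without KO 1 the log2 fold change was 0.97 and the adjusted p 0.129. The call was also lost without control 1, 2 or 3 (adjusted p 0.113, 0.0579 and 0.120), and it was kept by DESeq2 (adjusted p 9.82e-05). Igha had a log2 fold change of 4.34 (SE 1.03) and Jchain one of 4.82 (SE 1.15), both with an edgeR adjusted p of 0.0860. Without KO 1 the log2 fold changes were 1.76 for Igha (adjusted p 0.550) and 0.93 for Jchain (adjusted p 0.661). DESeq2 called Jchain (adjusted p 0.0218) and not Igha (adjusted p 0.0986). As a description, the fitted log2 differences of the genes that set the choice were 8.51 for Ighg1 and 6.50 for Igkc, and without KO 1 they were −2.77 and 1.07.

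Since the tissues were sequenced in bulk, more cells of a type and more RNA per cell cannot be told apart in any of these differences. Marker levels of other cell types also differed between the cerebella. Meningeal fibroblast genes (12 genes) summed to 657 to 1114 CPM in control cerebella, 1349 CPM in KO 1 and 1749 CPM in KO 2. Ptgds alone supplied most of each sum, at 564 to 888 CPM in controls, 1188 CPM in KO 1 and 1461 CPM in KO 2. In cerebellum 0 of the 12 genes were highest in KO 1, and Lum was lowest there. Choroid plexus genes (9 genes) summed to 68.5 CPM in KO 1 cerebellum and 1221 to 3451 CPM in the other 4, with 8 of the 9 lowest in KO 1. KO 2, at 2964 CPM, lay within the range of the controls for this sum, whereas its Ighm level did not. The part of these markers in the Ighm difference was not tested.

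In cortex, none of the 3 members tested was called by edgeR, where 0% of 19202 genes were called and 1139 had an unadjusted p under 0.05. DESeq2 called 45 genes in cortex and none of these members. Ighg2c had a log2 fold change of 1.11 (SE 0.336, adjusted p 0.760 by edgeR), Jchain 3.18 (SE 0.938, adjusted p 0.754) and Ighm −0.24 (SE 0.369, adjusted p 0.938). For Ighg2c and Jchain the unadjusted p was under 0.05. Without KO 1, the log2 fold change was 0.29 for Ighg2c and −0.089 for Jchain. Leaving out control 2, the highest Ighm cortex, turned the Ighm difference to 0.31 (adjusted p 0.196). Snx14 itself was not called in this comparison by edgeR (log2 fold change −1.36, SE 0.192, adjusted p 0.754), whereas it was in cerebellum (−1.66, SE 0.256, adjusted p 0.0140).

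The difference of the KO effect between the tissues was tested directly for 6 members, and none passed by edgeR or DESeq2, where 0.102% of 20614 genes passed. Ighg2c and Ighm had an unadjusted p under 0.05. The effect on Ighm was larger in cerebellum by 1.73 on the log2 scale (SE 0.547, adjusted p 0.357), by 1.22 without KO 1 cerebellum and by 1.15 without control 2 cortex. For Ighg2c the difference was 5.24 (SE 1.95, adjusted p 0.466) and turned to −2.24 without KO 1 cerebellum.

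The classes of heavy chain were then compared within each library. In KO 1 cerebellum, Ighg1 made up 77.2% of 5657 heavy chain constant counts (95% Wilson interval 76.1 to 78.3), Ighg2c 10.4%, Ighg2b 4.05%, Ighm 3.91% and Igha 3.77%. In KO 1 cortex, Ighg1 made up 58.9% of 3633 counts (57.2 to 60.4), Ighm 19.7%, Ighg2c 13.1%, Igha 5.20% and Ighg2b 2.45%. Per exonic length, Ighg1 was again first, at 69.3% and 49.1%, followed by Ighg2c at 18.2% in cerebellum and by Ighm at 22.6% in cortex. Intervals cover counting error only. In the other 4 mice Ighm led in both tissues, with 62.2% to 86.3% of 73 to 199 heavy chain counts in cerebellum and 76.2% to 87.2% of 656 to 1705 in cortex. Switched classes thus led in the libraries of 1 mouse, and Ighm counts led in the rest. The rest held only 1 to 39 light chain constant counts and 3 to 40 V counts each. Their Ighm shares therefore describe constant region counts and not whole IgM transcripts.

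**Figure D2:**
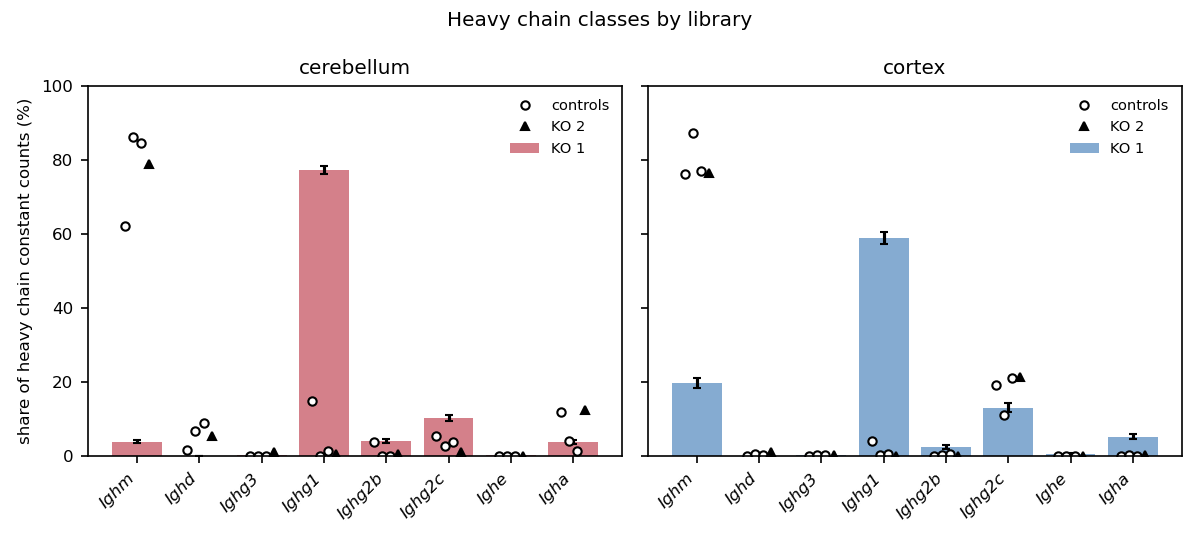
Share of each heavy chain class among all heavy chain constant counts of a library, in percent, for cerebellum and cortex. Bars are KO 1 with 95% Wilson intervals, open circles the 3 controls and triangles KO 2. Ighg1 holds 77.2% and 58.9% in KO 1, and Ighm holds over 60% in every other library.

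Light chains were mostly kappa. Igkc made up 94.7% of 2583 light chain constant counts in KO 1 cerebellum (93.8 to 95.5) and 95.01% of 1363 in KO 1 cortex (93.7 to 96.1). Per exonic length the kappa share was 94.2% and 94.4%. The kappa shares of the tissues of KO 1 had overlapping intervals, whereas their Ighg1 shares did not. The other libraries held 1 to 39 light chain counts each, too few to rank kappa and lambda closely.

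Antibodies of different specificity use different variable segments, and segment use was compared between the tissues of KO 1. Printed here are the heavy, kappa and lambda segments with the most counts over both tissues together. Each line is the first 119 bases of the V exon, 5′ to 3′ in GRCm38, with the codon of the conserved first cysteine in capitals. Ighv1-64 lies at chr12:115507731-115507849 on the minus strand, Igkv3-12 at chr6:70518540-70518658 on the plus strand and Iglv1 at chr16:19085203-19085321 on the minus strand. Ighv1-64 and Igkv3-12 were named after their values were seen, as the most counted of their chains over both tissues of KO 1.
Ighv1-64: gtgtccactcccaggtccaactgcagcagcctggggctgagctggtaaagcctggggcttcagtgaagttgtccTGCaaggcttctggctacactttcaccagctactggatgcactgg
Igkv3-12: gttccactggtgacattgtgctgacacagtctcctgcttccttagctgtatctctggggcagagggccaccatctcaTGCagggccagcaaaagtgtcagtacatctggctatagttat
Iglv1: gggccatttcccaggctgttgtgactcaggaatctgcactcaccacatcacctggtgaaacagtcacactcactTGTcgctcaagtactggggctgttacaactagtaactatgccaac
Ighv1-64 had 45 counts in KO 1 cerebellum and 34 in KO 1 cortex, and was not the first heavy segment in either. Ighv3-6 had 63 in cerebellum and Ighv1-26 had 41 in cortex. Among kappa segments in cortex, Igkv12-46 was first with 45. Igkv3-12 had 95 and 24, and Iglv1 had 115 and 67.

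In KO 1 cerebellum, 1863 counts fell on V segments and 154 of the 218 annotated V segments had at least 1. In KO 1 cortex, 1087 counts fell on 132 segments. No segment dominated: the most counted, Iglv1 in both tissues, held 6.17% (95% Wilson interval 5.17 to 7.36) and 6.16% (4.88 to 7.75) of the counts. The inverse Simpson index, the number of equally used segments that would give the same concentration, was 50.5 in cerebellum and 50.6 in cortex. With a minimum of 10 counts, 52 and 38 segments remained. Heavy chain segments took 37.5% and 39.7% of V counts, kappa segments 54.6% and 53.7%, and lambda segments 7.89% and 6.62%.

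The other 8 libraries held 3 to 40 V counts each over 3 to 25 segments. Among those with at least 20, Igkv6-23 led in control 1 cerebellum with 6 of 40 counts and Ighv1-81 in KO 2 cerebellum with 3 of 36. J segments followed the V segments, with 691 and 462 counts in KO 1 and 5 to 20 in the other libraries. A read pair that spans a V segment, a J segment and a constant region was counted for each of them, so these counts are not separate molecules. Reads that fitted several V segments were not counted, and somatic mutation can keep a read from mapping, so the number of segments detected has an uncertain scale.

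The V segments used in the tissues of KO 1 overlapped. Of the segments detected, 124 were shared, which is 80.5% of the cerebellum list and 93.9% of the cortex list. With a minimum of 10 counts, 32 were shared, or 61.5% and 84.2%. Over the 162 segments seen in either tissue, counts had a Pearson r of 0.73 on log2(count + 1) and a Spearman rho of 0.72, as a description across segments of 1 mouse that also share mappability. Among the 10 most counted segments of each tissue, 7 were the same: Ighv1-64, Igkv10-96, Igkv12-46, Igkv3-7, Igkv6-17, Igkv6-23 and Iglv1. Not every segment kept its place, since Igkv3-12 fell from 95 counts to 24 while the V total fell from 1863 to 1087.

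**Figure D3:**
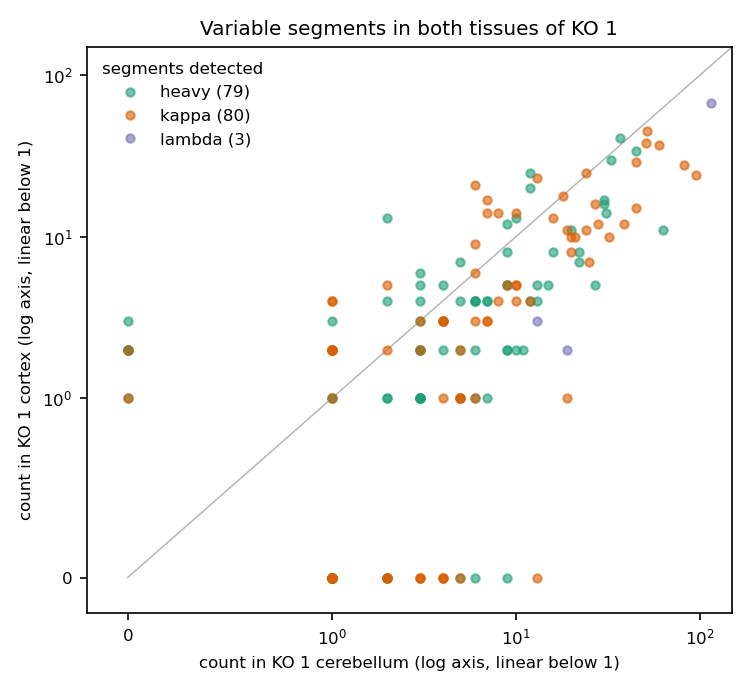
Counts of 162 V segments in the cerebellum (x) and cortex (y) of KO 1, on log axes that are linear below 1, coloured by chain, with a line of equal counts. Points spread over both axes with Iglv1 at the top right, and most segments with 10 or more counts in cerebellum lie below the line, where the cortex library has fewer V counts in all (1087 against 1863).

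The levels in the tissues of KO 1 were set side by side as well. The ratio of cortex to cerebellum CPM was 0.491 for Ighg1 (95% exact interval 0.466 to 0.517), 0.531 for Igkc (0.496 to 0.568), 0.611 for Jchain (0.517 to 0.722), 0.557 for Mzb1 (0.358 to 0.855) and 0.585 for all V segments together (0.543 to 0.631). The levels of Ighg1, Igkc, Jchain, Mzb1 and V segments were thus all lower in cortex, with ratios between 0.491 and 0.611. The intervals of Ighg1 and all V segments did not overlap. Ighg2b had a lower ratio, at 0.390 (0.302 to 0.5), and Iglc2 at 0.185 (0.0696 to 0.419). Ighg2c at 0.813 (0.719 to 0.919) and Ighm at 3.25 (2.79 to 3.80) lay above that range, and both genes were also counted in the cortex of every other mouse. Igha at 0.890 (0.728 to 1.09), Ighe at 0.741 (0.372 to 1.45) and Iglc1 at 0.681 (0.477 to 0.964) lay above it too. Those genes had only 0 to 5 counts in each other cortex. In the other mice most of these genes had few counts. Control 1 had the most Igkc of the 3 controls in both tissues, at 1.46 and 1.44 CPM, while control 2 had 11 Igkc counts in cerebellum and 1 in cortex.

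The tissues were compared over all 5 mice next. Ighm was higher in cortex than in cerebellum in 5 of 5 mice, and the log2 difference (cerebellum minus cortex) was −2.93 (SE 0.283, adjusted p 4.31e-06 by edgeR). Ighg2c was higher in cortex in 4 of 5 mice, all but KO 1, with a log2 difference of −2.84 (SE 0.971, adjusted p 0.0246 by edgeR). These were 2 calls among 6 members tested, where 42.7% of all genes were called in either direction and 22% were called higher in cortex, and 30.8% were higher in the cortex of all 5 mice. Without both KO 1 libraries, the difference was −3.17 for Ighm (adjusted p 0.000112) and −6.18 for Ighg2c (adjusted p 1.00e-06). The Ighg2c call was lost without control 2 in both tissues (adjusted p 0.0531), without control 2 or control 3 cerebellum (0.0555 and 0.0553) and without KO 1 cortex (0.0797). Igha, Ighg2b, Jchain and Mzb1 did not pass.

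The cortex counts of Ighm and Ighg2c came with few counts of other antibody genes. In the cortices other than KO 1, Ighm had 506 to 1487 counts and Ighg2c 135 to 188, while Igkc had 1 to 24 counts, all V segments together 3 to 14 and Jchain 11 to 17. Control 2 cortex was the extreme, with 1487 Ighm counts, 1 Igkc count and 3 V counts. In KO 1 cerebellum, by contrast, 2446 Igkc counts and 1863 V counts stood beside 221 Ighm counts.

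**Figure D4:**
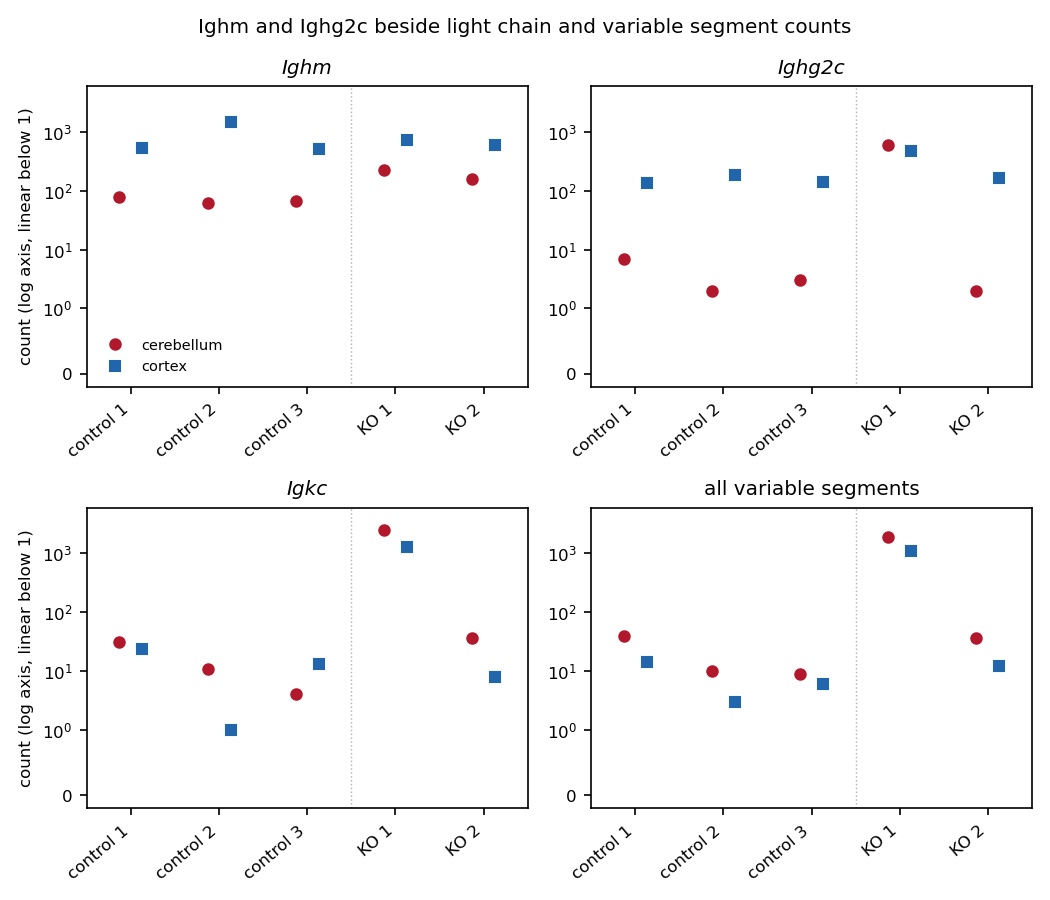
Counts of Ighm, Ighg2c, Igkc and all V segments together in each mouse, on log axes that are linear below 1, with circles for cerebellum and squares for cortex. In the 4 cortices other than KO 1, Ighm lies at 506 to 1487 counts and Ighg2c at 135 to 188, while V segments lie at 3 to 14.

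Other genes were also high in control 2 cortex. Cd4, a T helper cell coreceptor, had 649 counts there and 44 to 228 in the other cortices, and Trbc2, a T cell receptor constant region, had 564 and 229 to 289. The rest of the T cell list did not follow them. In that library Cd3e, Cd3d, Cd3g and Trac had 1, 0, 0 and 5 counts. Lck, the most counted of the rest there, had 21, against 15 to 22 in the other cortices. A list of 12 striatal neuron genes, written after the Ighm levels had been seen, summed to 4591 CPM in control 2 cortex, 2065 and 1860 CPM in controls 1 and 3, 1175 CPM in KO 1 and 617 CPM in KO 2, and to 459 to 554 CPM in the cerebella. Cortical excitatory neuron genes were lowest in control 2, at 1355 CPM. KO 2 had the lowest striatal sum and the third highest Ighm. The part of these differences in the Ighm level was not tested.

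Plasma cell genes outside the 9 members differed in how they followed KO 1. Of 16 further plasma cell genes, 11 were tested in cerebellum and 1 was called higher, with a median log2 fold change of 0.12, and 0 of 13 were called in cortex by edgeR (median −0.086). The one called was Cd38, an ectoenzyme of plasma cells that other cells also carry, at 9.75 to 12.2 CPM in control cerebella and 21.7 and 24.5 CPM in KO 1 and KO 2 (log2 fold change 1.06, SE 0.131, adjusted p 0.00585). It rose in both KO cerebella, so it did not track Igkc. The list's summed level in KO 1 was 256 CPM in cerebellum (235 to 283 CPM in the others) and 205 CPM in cortex (205 to 269 CPM in the others), and Xbp1, the secretory pathway regulator, supplied 81.4 and 70.5 CPM of it. KO 1 was the highest library for 7 of the 16 in cerebellum (Sdc1, Prdm1, Irf4, Tnfrsf13b, Pou2af1, Fkbp11 and Slamf7) and for 4 of 16 in cortex (Irf4, Pou2af1, Fkbp11 and Slamf7), where all genes tested gave 16.9% and 18.6%. Other genes of the list went the other way. Sec11c and Creld2 were lowest in KO 1 in cerebellum, and Sdc1, Tnfrsf17 and Txndc5 in cortex. Among the low members of the list, Slamf7, a surface receptor of plasma cells and other lymphocytes, had 13 and 4 counts in KO 1, 0 to 4 in the other cerebella and 0 to 3 in the other cortices. Pou2af1, a coactivator of immunoglobulin genes, had 9 and 11 counts in KO 1 and 0 to 4 in the other libraries. Irf4, a plasma cell transcription factor, had 17 and 30 counts in KO 1, 1 to 6 in the other cerebella and 8 to 20 in the other cortices. Sdc1, which encodes the plasma cell surface marker CD138, lay at 14.5 CPM in KO 1 cerebellum and 11.3 to 12.5 CPM in the others. In cortex it lay at 0.774 CPM in KO 1 and 0.778 to 1.08 CPM in the others. Tnfrsf17, the receptor BCMA, had 0 and 1 counts in KO 1.

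B cell genes were read in the same way. Ms4a1, which encodes CD20, had 0 or 1 count in each library. The 15 B cell genes summed to 69.3 CPM in KO 1 cerebellum, the lowest of the 5, and to 14.0 CPM in KO 1 cortex, also the lowest. Ebf1, an early B cell factor that other cells also use, supplied 61.3 CPM of the cerebellar sum. Without it, a sum added after seeing the data, the other 14 genes gave 7.94 CPM in KO 1 cerebellum, 9.66 CPM in KO 2 and 6.03 to 7.01 CPM in the controls, and KO 1 cortex at 10.3 CPM was still the lowest (11.8 to 16.2 CPM in the others). Of the tested B cell genes 0 of 7 and 0 of 6 were called between KO and control by edgeR (medians −0.10 and −0.24). Of 7 B cell precursor genes, 2 and 1 could be tested and 0 were called, with sums of 3.97 CPM in KO 1 cerebellum (2.74 to 3.50 CPM in the others) and 1.49 CPM in KO 1 cortex (1.20 to 2.37 CPM). The 12 T cell genes summed to 6.62 CPM in KO 1 cerebellum (3.81 to 5.78 CPM in the others) and 24.3 CPM in KO 1 cortex (21.7 to 63.5 CPM), with 0 of 3 called in each.

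Genes that bind or carry antibody, and those that keep plasma cells alive, were also read. Of 8 Fc receptor and transport genes, 6 were tested in each tissue. Fcgr2b, the inhibitory IgG receptor, was called higher in KO cerebellum, at 2.33 to 2.64 CPM in controls, 5.29 CPM in KO 1 and 6.90 CPM in KO 2 (log2 fold change 1.33, SE 0.198, adjusted p 0.0124), and the median of the list was 0.42. The call was lost without KO 2 (adjusted p 0.0922), control 1 (0.0683) or control 3 (0.0676). None was called in cortex by edgeR (median 0.13). Of 12 niche ligands and receptors such as Cxcl12 and Tnfsf13b, 0 of 10 in cerebellum and 0 of 9 in cortex were called (medians 0.30 and 0.15). KO 2, with few immunoglobulin counts, had the higher sum for both lists in cerebellum, at 59.0 and 73.6 CPM against 51.5 and 62.9 CPM in KO 1.

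Blood carried over with the tissue was read from its own markers. Red blood cell genes (5 genes) summed to 7.003 CPM in KO 1 cerebellum (4.66 to 17.3 CPM in the others) and 10.8 CPM in KO 1 cortex (5.75 to 17.8 CPM), so KO 1 lay within the range of the other mice. Neutrophil and marrow genes (8 genes) summed to 7.11 CPM in KO 1 and 16.1 CPM in KO 2 cerebellum and 1.02 to 2.89 CPM in controls. Ltf and Ngp, granule proteins of neutrophils, were called higher in KO cerebellum (log2 fold changes 3.42 and 3.26, adjusted p 0.0436 and 0.0114). DESeq2 gave neither an adjusted p, and the Ltf call was lost without KO 1 (0.0641), KO 2 (0.276), control 1 (0.163) or control 3 (0.119). The Ngp call was lost without KO 2 (0.0909), control 1 (0.0710) or control 3 (0.0608). Ptgds, a prostaglandin synthase of the meninges, was the 1 of 12 meningeal genes called (log2 fold change 0.95, SE 0.188, adjusted p 0.0433), and that call was lost without KO 1 (0.0711), KO 2 (0.195), control 2 (0.0558) or control 3 (0.178). The part of these genes in the immunoglobulin levels was not tested.

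**Figure D5:**
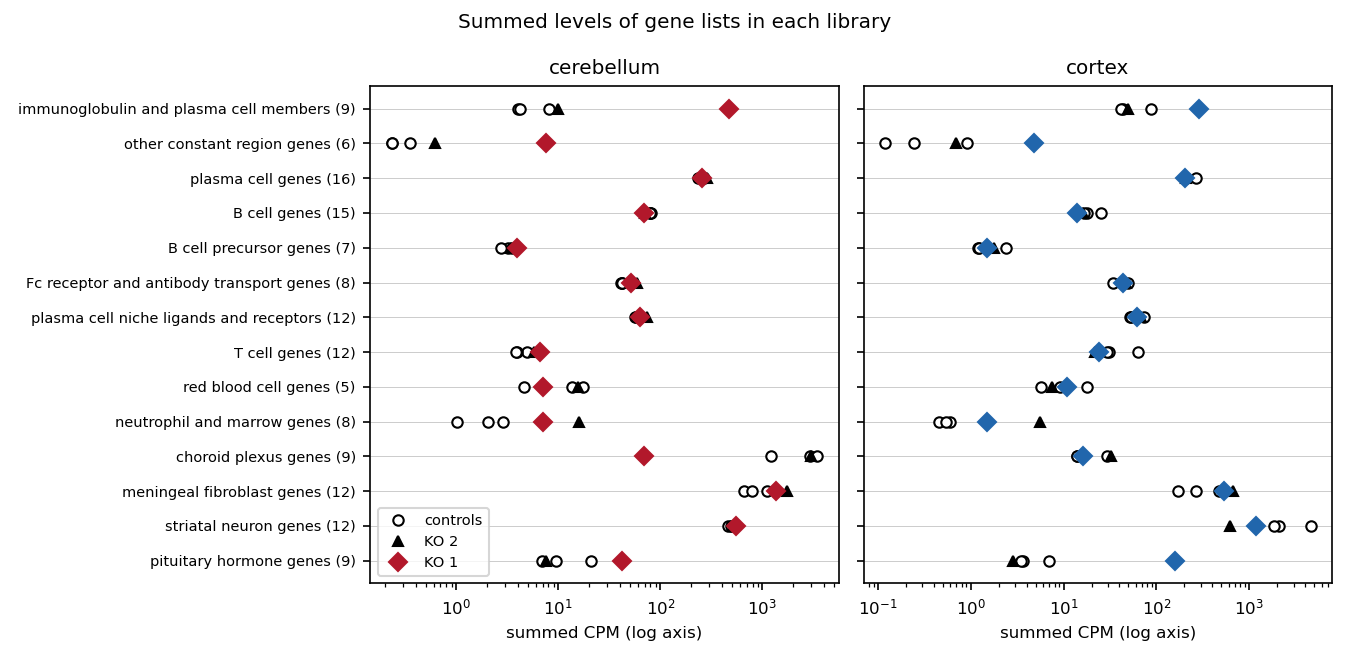
Summed CPM of each gene list in each library, on a log axis, for cerebellum and cortex, with the number of genes in parentheses. Diamonds are KO 1, triangles KO 2 and open circles the 3 controls. KO 1 stands above the other mice for the 9 members (471 and 286 CPM), the other constant regions (7.50 and 4.76 CPM) and the pituitary hormone genes, and below them for choroid plexus genes in cerebellum (68.5 CPM).

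The genes outside the immunoglobulin loci whose pattern was most like that of Igkc were ranked by Pearson r over the 10 libraries, on log2(CPM + 0.5) with each tissue's mean subtracted, among 21208 genes with at least 50 counts. The first 8 were Slpi (r = 0.98), Jchain (0.98), Mzb1 (0.98), Mir7678 (0.97), Pomc (0.97), Zc3h3 (0.95), Capn11 (0.95) and Vars (0.93). Without the libraries of KO 1, r was 0.70 for Slpi, 0.42 for Jchain, 0.32 for Mzb1 and 0.084 for Capn11, while it was 0.96 for Zc3h3.

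Slpi, a secreted inhibitor of leukocyte proteases, had 472 and 207 counts in KO 1 and 4 to 14 in the other 8 libraries. Mir7678 lies inside Slpi on the same strand, and its 232 and 102 counts cannot be told apart from reads of Slpi. Capn11, a calpain protease, had 95 and 53 counts in KO 1 and 2 to 19 elsewhere. Zc3h3 and Vars, by contrast, differed little between libraries, with 138 to 272 and 646 to 1119 counts.

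Pomc, the precursor of pituitary and hypothalamic peptides, had 296 and 366 counts in KO 1 and 17 to 57 elsewhere. Of 8 further pituitary genes, listed after this was seen, Prl, Gh and Cga were also highest in KO 1 in both tissues. Prl had 338 counts in its cerebellum and 2190 in its cortex, with 0 to 224 in the others, and Gh had 72 and 243, with 0 to 35 in the others. Cga had 3 and 14, with 0 to 2 in the others. Tshb, a subunit of thyrotropin, went the other way in cerebellum, with 43 and 72 counts in KO 1 and KO 2 against 109 to 125 in controls. In cortex Tshb was highest in KO 1, with 43 counts against 13 to 21. Lhb and Fshb were also highest in KO 1 cortex, with 8 and 2 counts. Pou1f1 and Tbx19, also on the list, did not follow KO 1. Pou1f1 had 1 count in each KO 1 library and 0 to 3 in the others, and Tbx19 had 0 in KO 1 and 0 or 1 in the others. The 9 genes of that list summed to 41.7 and 158 CPM in KO 1 and to 2.86 to 20.8 CPM in the other 8 libraries. Their order between the tissues was opposite to that of Igkc, Ighg1 and Jchain, which were higher in cerebellum, and their part in the immunoglobulin levels was not tested.

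Genes that stood far above the other mice in KO 1 were also counted over the whole table. With at least 20 counts in KO 1 and a level over 10 times that of the next highest library of the same tissue, 50 genes stood out in cerebellum and 33 in cortex, and 27 were common to both, by limits chosen after the levels had been seen. Of the 27, 5 were constant regions (Igha, Ighg1, Ighg2b, Igkc and Iglc1), 11 were V segments and 7 were J segments. The other 4 were Jchain, Mzb1, Slpi and Mir7678. In cerebellum the list outside the immunoglobulin loci added Lax1, an adaptor protein of lymphocytes, and Gm42889, and in cortex it added Gh and Prl.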

How the data were processed

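The authors sequenced strand-specific mRNA libraries in pairs, aligned reads with STAR and deposited raw counts per gene from featureCounts 2.0.1 on GENCODE M21 (GRCm38), counted without strand and without multi-mapped reads, with a pair over several genes counted for each. Of 81881 entries, 26345 that name no mouse gene (0.16% to 0.926% of counts) were left out. Libraries held 16088310 to 22975355 counts, whose number limits precision.

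The counts were fitted in edgeR 4.0.16 (TMM, filterByExpr with a count minimum of 10, quasi-likelihood test, Benjamini-Hochberg adjustment over all genes). Calls needed an adjusted p below 0.05 with a log2 fold change beyond 0.5 in either direction, except for the difference between tissues, which needed the adjusted p alone. DESeq2 1.42.0, RLE factors, no filter, left-out libraries and replicate or animal blocks were alternatives. On simulated data with 200 genes changed by 2 on the log2 scale, the fits recovered 96.5% (cerebellum, 19161 genes), 93.5% (cortex, 18892 genes), 87.5% (difference, 19975 genes) and 97% (tissues, 19990 genes). False calls numbered 11, 2, 8 and 8 in that order. The simulation gave every gene the same dispersion and moved all libraries of a group alike. It therefore does not show how often a gene high in 1 mouse, or one with a wider spread, would be called. Same-mouse libraries of the tissues shared deviations from their group means (r 0.163 to 0.367 over 5 pairs), as the labels pair them by mouse. With 2 KO mice the deviations mirror each other, so both KO pairs give the same r (0.32) and the 5 pairs are not independent. No replicate pair matched within sampling noise (chi-square per degree of freedom 4.16 to 29.2).

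Named were Snx14, the 9 members, list genes that passed between KO and control, up to 4 genes a list by mean CPM, the 8 genes most like Igkc outside the immunoglobulin loci, and the leading V segment of libraries with at least 20 V counts. Slamf7, Sdc1, Pou2af1, Irf4, Tnfrsf17, Ms4a1, Cd4, Trbc2, Iglc1, Ighe and the pituitary genes were chosen after their values were seen, where that rule does not name them. Other list genes outside the rule, such as Prdm1, Fkbp11 and Lum, were named by their order between libraries, which also followed their values. Members and lists were chosen with earlier results of these data known.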

Additional observations from a re-analysis of the deposited data

How the results depend on the processing

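Counts below are members called of those tested by edgeR unless named. In cerebellum 1 member was called (Ighm), 2 with DESeq2, 7 with no filter on low counts, and 0 to 7 when 1 library was left out, with 0 without KO 1 or any control and 7 without KO 2. In cortex 0 became 5 with no filter, and left-out libraries gave 0 to 3, with 3 without KO 2. Without a KO library that arm is 1 mouse, assumed to vary like the other groups, so the counts without KO 2 rest on KO 1 alone, whose levels chose the members. For the difference of the KO effect 0 became 3 with no filter, and left-out libraries gave 0 to 1. Between tissues 2 became 1 without control 2 in both tissues, an alternative added after seeing the data, and left-out libraries gave 1 to 3. With no filter the fit shrank each gene's spread fully to the common trend (infinite prior degrees of freedom), so its calls take no account of 1 mouse being high.

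The replicate number joins different mice in KO and control. With it as a replicate block, same-numbered libraries had correlations of −0.0355 to 0.114, 1 member was called in cerebellum, Igha (log2 fold change 3.72, adjusted p 0.0199) in place of Ighm (1.44, adjusted p 0.0621), and 0 in cortex. Blocking by mouse changed no member's call between tissues. It gave −2.90 for Ighm and −3.34 for Ighg2c, with 2 calls, and 0 for the difference.

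When 1 library was left out, log2 fold changes ran from −0.46 to 0.31 for Ighm in cortex and from −0.089 to 4.08 for Jchain in cortex, and the Ighg2c difference between tissues in the KO effect ran from −2.24 to 6.26, turning only where the library named in the text was left out. With plain library totals or scaling within tissue, Igkc in KO 1 cerebellum was 138 or 136 CPM. A minimum of 10 counts left 52 of 154 V segments in KO 1 cerebellum. Of the 8 genes most like Igkc, 0 were shared with a ranking by Spearman rho, 1 without both KO 1 libraries (added after seeing the data), and 2 to 6 with 1 library left out. In each tissue 4 members missed the filter because 1 library held nearly all their counts, Ighg1 and Igkc had no test by choice, and 2 KO mice cannot show whether the KO 1 pattern recurs.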
